A study of Mus musculus with 11 samples.

Results

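The genes described here are 45 mouse genes for enzymes and transporters of central carbon metabolism, found by symbol among the 55291 rows of the count table. They were grouped by role into 20 genes of glucose uptake and glycolysis, 7 of the pentose phosphate pathway and 18 of pyruvate dehydrogenase and the tricarboxylic acid (TCA) cycle. All 45 passed the filter on low counts in every comparison. RNA came from E14 embryonic stem cells, kept without feeder cells in medium with serum, the cytokine LIF and inhibitors of GSK3 and MEK, and was read in 10 libraries. The tagged cells were 2 independently targeted lines, with codes 10E and 11D, in which SPT16 carries a C-terminal V5 epitope and an auxin-inducible degron. SPT16 is the large subunit of FACT, a histone chaperone that loosens and rebuilds nucleosomes during transcription, and indole-3-acetic acid (IAA), an auxin, sends a degron-tagged protein to the proteasome. The first group was tagged cells with IAA at 500 nM for 24 hours (1 library of 10E and 2 of 11D). The second was tagged cells with the same volume of ethanol (EtOH) for 24 hours (2 libraries of each line). The third was untagged cells with IAA, also at 500 nM for 24 hours (3 libraries). The untagged columns carry the code TIR1, the name of the plant receptor that the degron needs. The SPT16 protein was not measured in these files, the labels name the 2 tagged lines as clones, and an untagged EtOH group was not analysed here.

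Glycolysis splits glucose into pyruvate in the cytosol, and cells that grow fast, embryonic stem cells among them, turn much of that pyruvate into lactate. The pentose phosphate pathway branches off after the first phosphorylation of glucose and makes NADPH and ribose phosphate for nucleotides. Pyruvate dehydrogenase feeds the rest of the pyruvate into the mitochondrial TCA cycle, which supplies electrons for respiration and carbon for synthesis. Many glycolytic genes are known targets of the hypoxia-inducible factors, whose sites often hold the letters ACGTG. Of these sites only that form was searched for, so a window without it can still hold another form.

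Promoter sequences are shown for 4 glycolytic genes that were lower after IAA, 3 with this motif upstream of the start shown and 1 without it, and for the 2 glycolytic genes that were higher. Each is the 250 bases before a RefSeq start (GRCm38.p6, the sequence of mm10), written 5′ to 3′ on the gene's strand, with every ACGTG and its reverse complement CACGT in capitals. A run CACGTG holds the motif on both strands. They are Ldha, lactate dehydrogenase A (chr7:46845554-46845803, plus strand, 1 of its 2 starts, the other having no match), Pgk1, phosphoglycerate kinase (chrX:106186850-106187099, plus strand), Hk2, hexokinase 2 (chr6:82774455-82774704, minus strand), Pfkp, platelet-type phosphofructokinase (chr13:6648772-6649021, minus strand), Pfkfb3, which makes the activator of phosphofructokinase (chr2:11502091-11502340, minus strand, 1 of its 2 starts), and Aldoc, aldolase C (chr11:78322823-78323072, plus strand, 1 of its 2 starts).
Ldha: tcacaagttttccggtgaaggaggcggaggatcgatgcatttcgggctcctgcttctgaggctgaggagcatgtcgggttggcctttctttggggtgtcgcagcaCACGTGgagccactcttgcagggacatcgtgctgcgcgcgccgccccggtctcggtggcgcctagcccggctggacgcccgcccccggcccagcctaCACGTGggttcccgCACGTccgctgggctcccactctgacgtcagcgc
Pgk1: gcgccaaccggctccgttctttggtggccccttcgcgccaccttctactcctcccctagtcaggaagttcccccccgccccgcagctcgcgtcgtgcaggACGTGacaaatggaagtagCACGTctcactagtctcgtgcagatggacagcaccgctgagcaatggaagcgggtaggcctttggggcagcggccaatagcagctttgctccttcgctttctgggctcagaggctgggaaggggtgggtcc
Hk2: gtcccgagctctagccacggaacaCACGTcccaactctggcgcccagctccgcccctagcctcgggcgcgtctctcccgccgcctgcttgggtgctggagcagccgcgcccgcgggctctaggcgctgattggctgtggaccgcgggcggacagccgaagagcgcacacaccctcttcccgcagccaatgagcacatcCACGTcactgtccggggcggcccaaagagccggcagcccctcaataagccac
Pfkp: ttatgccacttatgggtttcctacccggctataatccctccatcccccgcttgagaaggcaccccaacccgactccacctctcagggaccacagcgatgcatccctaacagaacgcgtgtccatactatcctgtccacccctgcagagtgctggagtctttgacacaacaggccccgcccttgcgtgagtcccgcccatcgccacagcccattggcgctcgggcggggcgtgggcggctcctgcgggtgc
Pfkfb3: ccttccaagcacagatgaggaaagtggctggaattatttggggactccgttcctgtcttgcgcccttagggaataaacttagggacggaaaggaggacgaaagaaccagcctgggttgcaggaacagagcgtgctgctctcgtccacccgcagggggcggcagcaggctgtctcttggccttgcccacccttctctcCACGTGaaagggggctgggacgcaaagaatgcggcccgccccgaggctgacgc
Aldoc: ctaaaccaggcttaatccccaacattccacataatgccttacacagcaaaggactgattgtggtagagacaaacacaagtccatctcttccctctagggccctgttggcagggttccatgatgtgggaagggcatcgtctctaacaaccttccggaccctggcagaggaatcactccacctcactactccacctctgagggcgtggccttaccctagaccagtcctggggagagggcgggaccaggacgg

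Of the 45 genes, 43 had RefSeq promoters, with 63 windows of 300 bases (250 before and 50 after a start). ACGTG, read on both strands, stood in 15 of 32 windows of glycolytic genes (46.9%), 1 of 8 of pentose phosphate genes (12.5%) and 9 of 23 of pyruvate dehydrogenase and TCA genes (39.1%). Windows of the same gene can overlap and are not independent. Most of these 9 were alternative starts of Ogdh, and the others were of Mdh1, Pdhb and Idh3g, among 17 genes with windows. The share was 25.2% over windows of all tested genes and 19.6% over all windows. Of the other motifs searched, the E-box CACGTG, which holds ACGTG, stood in 9.38%, 0% and 13% of the windows of the 3 groups, against 9.85% for tested genes. The CCAAT box was in 34.4%, 37.5% and 65.2%, against 38.1%. The GC box GGGCGG was in 56.2%, 87.5% and 69.6%, against 61.8%. AAGGTCA, a site of oestrogen-related receptors, was in 6.25%, 0% and 4.35%, against 3.35%, and GCGCATGC, the core of the NRF1 site, in 3.12%, 0% and 8.7%, against 5.09%. Upstream of the start alone, ACGTG was in 37.5%, 0% and 39.1% of windows, against 21.4%. Of the 250-base sequences above, that of Ldha holds the motif at 3 places, those of Pgk1 and Hk2 at 2, that of Pfkfb3 at 1 and those of Pfkp and Aldoc at none. With the 50 bases after the start, the Aldoc window shown also holds it and that of Pfkp does not. Hk1 and Pdk1, with Pfkp the falling glycolytic genes of lowest FDR, have no match upstream of any of their starts. The sequences shown therefore do not represent all falling glycolytic genes. These matches describe letters in the windows and are not evidence of binding.

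Total counts were 3100127 to 13510163 per library. TMM factors, which rescale libraries to a common centre, were 1.12 to 1.18 in tagged IAA libraries and 0.889 to 0.995 in tagged EtOH libraries, so scaling affects every value below. The median gene stood at a log2 fold change of 0.01 for IAA over EtOH with TMM and at 0.30 with library totals alone. Transcripts of mitochondrial DNA took 2.45% to 3.16% of counts in tagged IAA, 1.67% to 2.26% in tagged EtOH and 2.28% to 2.73% in untagged IAA libraries. The single gene CT010467.1 took 0.223% to 1.58% in tagged IAA, 0.129% to 4.27% in tagged EtOH and 0.131% to 0.349% in untagged IAA. Supt16, whose product carries the tag, had its RNA at 257 to 291 CPM in tagged IAA, 361 to 413 in tagged EtOH and 533 to 571 in untagged IAA libraries, which is no check of its protein. All 8 embryonic stem cell markers fell in IAA against EtOH. Their summed level was 2894 to 3211 CPM (read counts scaled to a common library size with the TMM factors) in tagged IAA, 7083 to 8806 in tagged EtOH and 7497 to 8130 in untagged IAA libraries. Summed markers of other cell types stayed low: 8 fibroblast markers at 8.96 to 11.6 CPM in tagged IAA and 4.33 to 6.58 in tagged EtOH, and 6 primitive endoderm markers at 7.52 to 12.0 and 3.09 to 8.27 CPM. Of these lists 3 and 2 genes passed the filter, 1 rose (Pdgfra, on both lists), and 1 fibroblast marker was at 0 in all libraries. The 6 neural markers summed to 85.0 to 119 CPM in tagged IAA and 59.1 to 68.6 in tagged EtOH, with 2 of the 4 tested higher and 1 lower. The part of these marker and library differences in the results below was not tested, and in bulk RNA fewer cells of a type and less RNA per cell cannot be told apart.

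After IAA, RNA of most enzymes of glycolysis and of many of the TCA cycle was lower relative to other genes, with TMM scaling. The pentose phosphate genes split. For the TCA cycle the direction depends on the scaling, as given below, and the amount of RNA per cell was not measured. Of the 45 genes, 31 fell and 7 rose (edgeR, FDR under 0.05), where 29.3% of the 15722 genes tested fell and 30.2% rose. The falling share was 68.9% of the 45 genes and the rising share 15.6%. In 29 of the 45 every IAA library was below every EtOH library (25.9% of all genes tested), and in 6 every one was above (28.7%). The median log2 fold change of the 45 was -0.56, against 0.01 over all genes. With library totals 12 rose and 23 fell, where over all genes the split was 6803 and 2738 in place of 4742 and 4613, and the medians were -0.27 for the 45 genes and 0.30 for all. Some reads cannot be assigned with certainty. In 8 of the 45 genes over 25% of the 50-base stretches also occur in other genes, as given below. Smaller shares include Suclg2 (21.8%), Rpe (19.1%), Pfkp (17.1%), Pdha1 (16.9%) and Ldha (16.6%). Exons of Rpe, Pdha1, Pkm and Pfkp overlap those of other genes over 17.9%, 16.1%, 15.3% and 5.58% of their length. Among the 23 genes that share no 50-base stretch with another gene 14 fell and 5 rose (median -0.37, and -0.07 with library totals). Most glycolytic genes are not among these 23. Among the 29 whose exons overlap no other gene 16 fell and 6 rose (median -0.50, and -0.20 with library totals).

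Per kilobase of exon, the highest of the 45 genes in tagged EtOH were Gapdh (664 CPM per kilobase), Aldoa (624), Pkm (480), Ldha (278) and Slc2a3 (276), and the lowest were Rpia (0.835) and Pfkfb3 (2.24). By pathway, 18 of 20 genes of glucose uptake and glycolysis fell and 2 rose (median -0.86). Of the 7 pentose phosphate genes 3 rose, 3 fell and 1 did not pass (median -0.09). In pyruvate dehydrogenase and the TCA cycle 10 of 18 fell, 2 rose and 6 did not pass (median -0.27). With library totals the last group had 7 higher and 5 lower, so its direction depends on the scaling. The summed level of the glycolytic genes was 7473 ± 362 CPM in tagged IAA (SD, n = 3) and 14572 ± 1693 in tagged EtOH (SD, n = 4), and no IAA library reached the lowest EtOH library (7813 against 13054). Pentose phosphate genes summed to 979 ± 30.0 CPM in tagged IAA and 1049 ± 88.1 in tagged EtOH (SD, n = 3 and 4), and these ranges overlapped. Pyruvate dehydrogenase and TCA genes summed to 2325 ± 119 CPM in tagged IAA and 2647 ± 87.5 in tagged EtOH (SD, n = 3 and 4), with no overlap. These sums use the TMM factors. With library totals the median change was -0.56 for glycolytic, 0.21 for pentose phosphate and 0.03 for pyruvate dehydrogenase and TCA genes. The gap in the sum of the last group therefore also depends on the scaling.

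**Figure D1:**
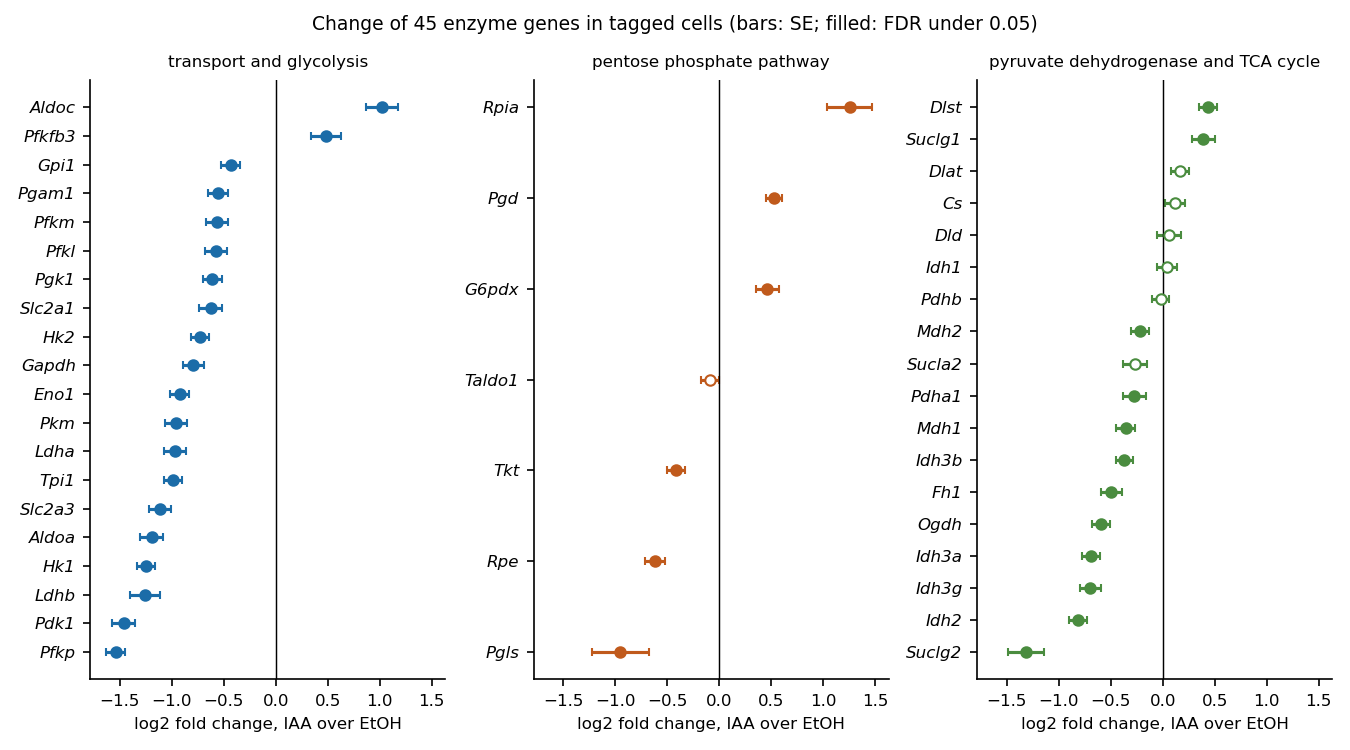
Log2 fold change of each of the 45 genes in tagged cells, IAA over EtOH, with TMM scaling (x axis), by pathway and sorted (y axis). Points are edgeR estimates with bars of 1 SE and are filled where the FDR was under 0.05; 18 of 20 glycolytic genes lie left of 0, from -0.44 for Gpi1 to -1.54 for Pfkp.

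**Figure D2:**
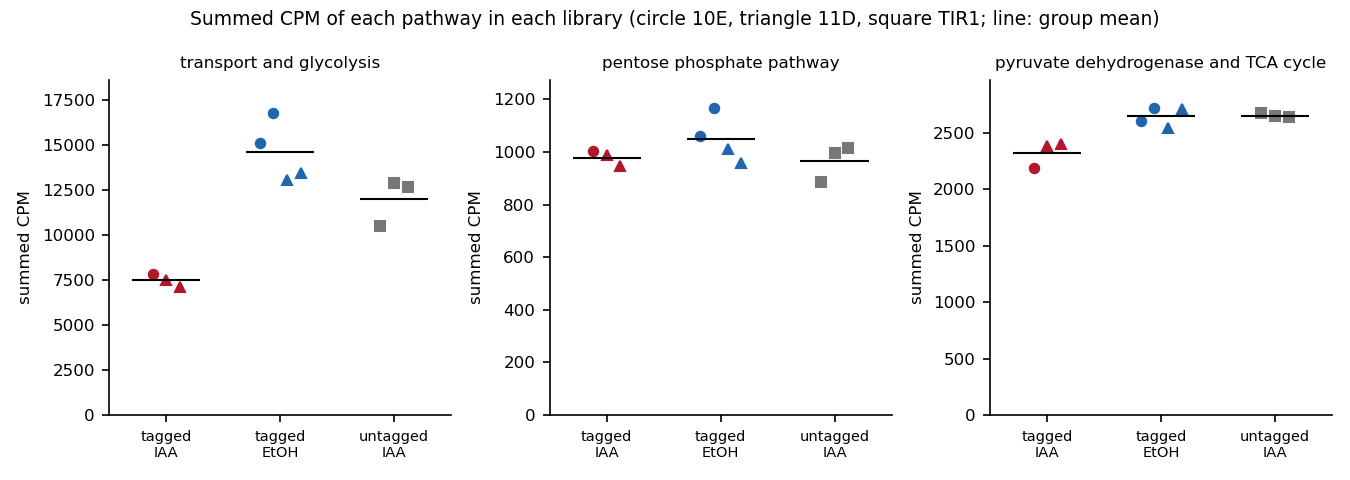
Summed CPM of the genes of each pathway in each library (y axis, from 0), by group (x axis). Shapes mark the line and the black line is the group mean; the glycolytic sum in tagged IAA libraries lies between 7093 and 7813 CPM, below all other libraries.

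Glucose enters through the transporters GLUT1 (Slc2a1) and GLUT3 (Slc2a3). In this and the following sentences values are given for tagged IAA in the order 10E, 11D and 11D, for tagged EtOH in the order 10E, 10E, 11D and 11D, and for untagged IAA by replicate. Slc2a3 stood at 853, 973 and 964 CPM in tagged IAA, against 1866, 2147, 1882 and 2092 in tagged EtOH and 2007, 2097 and 2089 in untagged IAA. The tagged IAA libraries were below all others (log2 fold change against EtOH -1.12 ± 0.10 SE, FDR 1.22e-06). Slc2a1 stood at 164, 247 and 213 CPM in tagged IAA, against 205, 296, 368 and 346 in tagged EtOH and 165, 224 and 211 in untagged IAA. It fell against EtOH within each line (-0.63 ± 0.11, FDR 0.000308), although the groups overlap across lines, and tagged IAA and untagged libraries lie in the same range.

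Hexokinases trap glucose by phosphorylation. Hk1 (mm10, chromosome 10, 62268855 to 62379908, minus strand) had 86.1, 85.3 and 76.9 CPM in tagged IAA, against 199, 210, 189 and 194 in tagged EtOH and 161, 193 and 184 in untagged IAA. Its groups were far apart and its change was -1.25 ± 0.08 (FDR 8.10e-08). Hk2, the inducible form, had 191, 197 and 186 CPM in tagged IAA, against 298, 362, 314 and 304 in tagged EtOH and 309, 354 and 354 in untagged IAA. It fell by less (-0.73 ± 0.09, FDR 1.02e-05), and per kilobase of exon Hk2 held 76.1% to 77.5% of the pair's level in tagged IAA and 68.2% to 71.1% in tagged EtOH. Gpi1, the isomerase that follows, changed by -0.44 ± 0.09, to 489 to 498 CPM in tagged IAA, against 620 to 753 in tagged EtOH. It did not pass with library totals (-0.14, FDR 0.167), and 25.3% of its 50-base stretches also occur in other genes.

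Phosphofructokinase commits sugar to glycolysis and is built from subunits of 3 genes. Pfkp (mm10, chromosome 13, 6579768 to 6648777, minus strand) had 211, 171 and 166 CPM in tagged IAA, against 564, 609, 472 and 536 in tagged EtOH and 484, 571 and 622 in untagged IAA. It had the lowest fold change of the 45 genes, -1.54 ± 0.09 (FDR 2.59e-08), with no overlap between IAA and other libraries. Pfkl, the liver-type subunit, had 160, 147 and 128 CPM in tagged IAA, against 268, 292, 196 and 172 in tagged EtOH and 149, 165 and 171 in untagged IAA. Pfkm, the muscle-type subunit, had 60.8, 52.3 and 52.0 CPM in tagged IAA, against 77.3, 74.98, 81.9 and 89.1 in tagged EtOH and 49.5, 56.6 and 68.2 in untagged IAA. Both fell against EtOH (-0.58 ± 0.10 and -0.56 ± 0.11), and both overlap the untagged libraries. Pfkm did not pass with library totals (-0.27, FDR 0.0605). Per kilobase of exon, Pfkp made up 25.3% to 27.2% of the family's level in tagged IAA, against 39.5% to 43.3% in tagged EtOH and 49.3% to 50.5% in untagged IAA, while Pfkl made up 40.8% to 43.7% in tagged IAA and 27.9% to 39.2% in tagged EtOH.

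Pfkfb3 makes fructose 2,6-bisphosphate, the activator of that step, and went the other way. It had 18.6, 30.1 and 28.5 CPM in tagged IAA, against 10.7, 13.0, 20.7 and 23.3 in tagged EtOH and 7.37, 11.2 and 7.93 in untagged IAA. Within each line IAA was above EtOH, but the 10E IAA library lies below both 11D EtOH libraries. The change was 0.48 ± 0.14 (FDR 0.0103), and it did not pass without the 10E IAA library (0.36, FDR 0.112), without the filter on low counts or without the line term.

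Aldolases cleave the sugar, and the 2 forms moved in opposite directions. Aldoa, the main form, had 817, 777 and 669 CPM in tagged IAA, against 1999, 2233, 1566 and 1473 in tagged EtOH and 1181, 1597 and 1483 in untagged IAA (-1.19 ± 0.11 against EtOH, FDR 1.07e-06). Aldoc, best known from brain (mm10, chromosome 11, 78322968 to 78327781, plus strand), had 47.3, 52.3 and 57.9 CPM in tagged IAA, against 23.4, 29.2, 18.2 and 29.8 in tagged EtOH and 10.4, 18.0 and 17.2 in untagged IAA. It rose by 1.02 ± 0.15 (FDR 7.44e-05) with no overlap. Its share of the pair per kilobase was 4.91% to 7.16% in tagged IAA and 1.03% to 1.77% in tagged EtOH.

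The 6 genes for the lower part of glycolysis, from triose phosphate to pyruvate, all fell. Changes were -0.99 ± 0.09 for Tpi1 (triose phosphate isomerase), -0.79 ± 0.10 for Gapdh (the dehydrogenase that makes NADH), -0.61 ± 0.09 for Pgk1 and -0.56 ± 0.10 for Pgam1 (phosphoglycerate mutase). Eno1 (enolase) changed by -0.92 ± 0.09 and Pkm (pyruvate kinase) by -0.96 ± 0.10. Gapdh, the highest of the 45 genes per kilobase in EtOH, had 1602, 1602 and 1453 CPM in tagged IAA, against 2893, 3013, 2488 and 2579 in tagged EtOH and 1749, 2226 and 2208 in untagged IAA. These genes have near-copies in the genome: 82.5% of the 50-base stretches of the Gapdh transcript, 72.2% of Eno1, 68% of Pgk1, 41.5% of Pgam1 and 34.4% of Pkm also occur in other annotated genes. How the authors counted such reads is not given in the sources used here, so these 5 values are uncertain.

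Lactate dehydrogenase turns pyruvate into lactate. Ldha had 490, 423 and 430 CPM in tagged IAA, against 923, 1193, 784 and 786 in tagged EtOH and 673, 851 and 788 in untagged IAA (-0.97 ± 0.10 against EtOH, FDR 3.61e-06). Ldhb, the form common in oxidative tissue, had 75.6, 72.6 and 85.0 CPM in tagged IAA, against 151, 131, 185 and 256 in tagged EtOH and 128, 148 and 169 in untagged IAA (-1.26 ± 0.14, FDR 6.90e-06), and 27% of its 50-base stretches occur in other genes. Neither overlapped between IAA and EtOH, and the share of Ldha in the pair per kilobase lay at 70.6% to 75.5% in tagged IAA, inside the 59.3% to 81.1% of tagged EtOH. Pdk1, the kinase that shuts pyruvate dehydrogenase off (mm10, chromosome 2, 71873224 to 71903858, plus strand), had 29.5, 31.2 and 32.8 CPM in tagged IAA, against 83.7, 99.3, 82.9 and 81.9 in tagged EtOH and 45.4, 48.1 and 79.3 in untagged IAA. It fell by 1.46 on the log2 scale (SE 0.11, FDR 1.60e-07), and the untagged libraries spread widely above the tagged IAA ones.

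**Figure D3:**
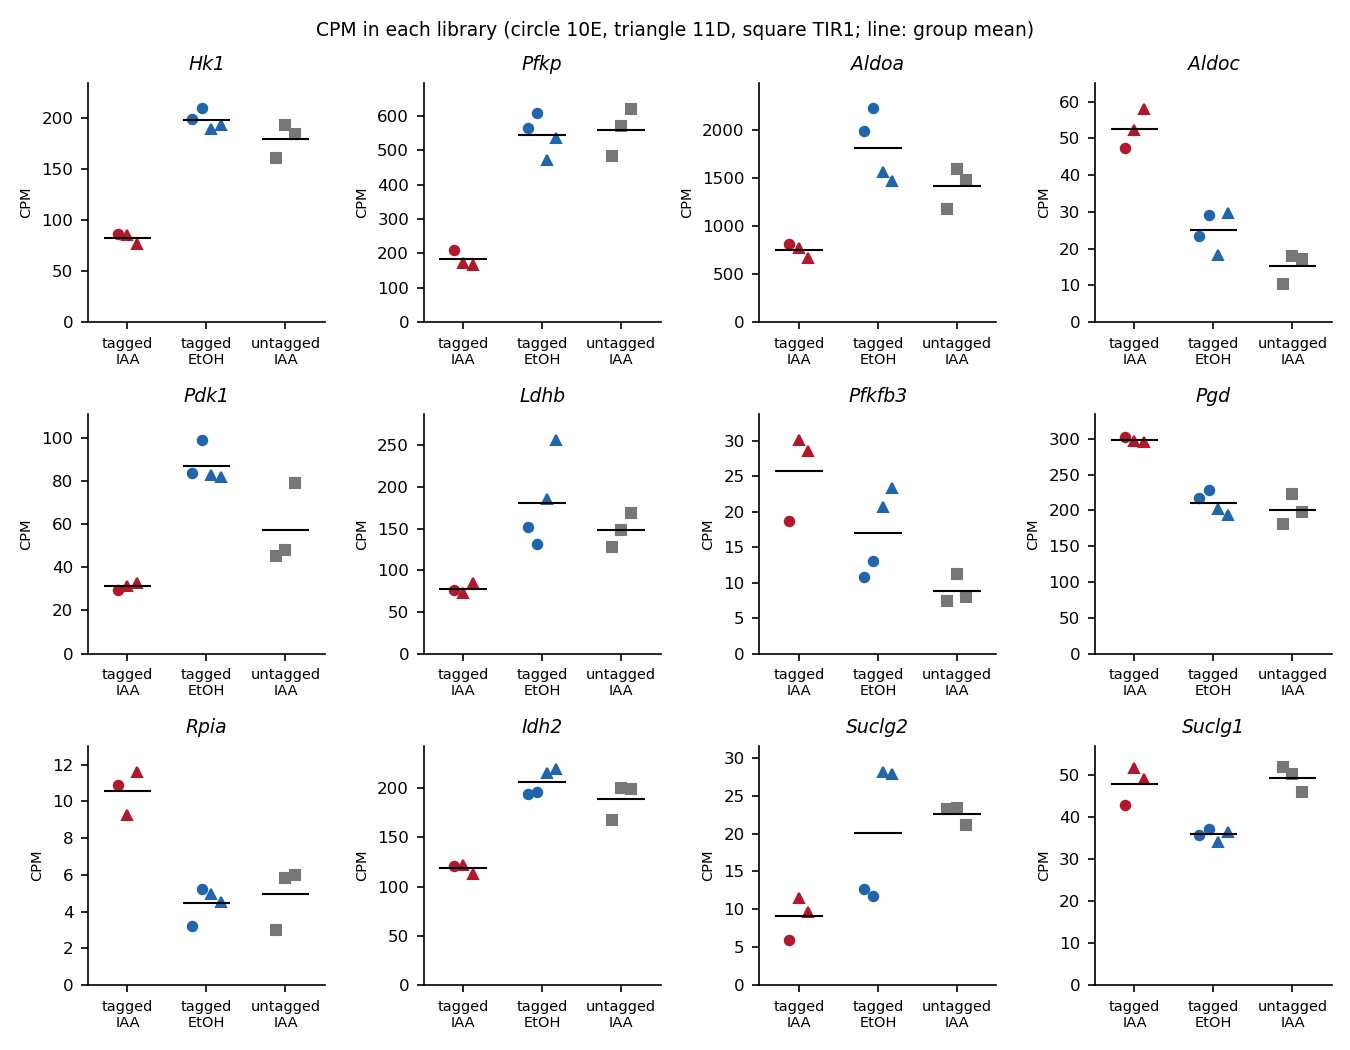
CPM of 12 of the genes in each library (y axis, from 0), by group (x axis), with the line shown by shape and the group mean as a black line. Hk1, Pfkp, Aldoa, Pdk1, Ldhb and Idh2 sit lower in tagged IAA than in every other library, and Aldoc, Pgd and Rpia sit higher.

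The oxidative arm of the pentose phosphate pathway makes NADPH. G6pdx, its first enzyme, had 104, 101 and 90.8 CPM in tagged IAA, against 86.1, 98.3, 61.2 and 59.6 in tagged EtOH and 81.7, 88.6 and 82.9 in untagged IAA. It rose by 0.46 ± 0.11 (FDR 0.00290) with groups that overlap, since one 10E EtOH library stands above an 11D IAA library. Its exons overlap those of Ikbkg over 13.6% of their length, and it did not pass without the line term (FDR 0.0927). Pgd, the third enzyme (mm10, chromosome 4, 149149991 to 149166771, minus strand), had 303, 297 and 296 CPM in tagged IAA, against 217, 228, 203 and 194 in tagged EtOH and 181, 223 and 197 in untagged IAA. Its IAA libraries were above all others (0.52 ± 0.08, FDR 6.31e-05). Pgls, the lactonase between them, had 18.4, 14.7 and 10.8 CPM in tagged IAA, against 20.7, 25.2, 46.1 and 21.1 in tagged EtOH and 14.7, 15.4 and 17.8 in untagged IAA. Its call of -0.95 ± 0.28 (FDR 0.00877) did not pass in DESeq2 (FDR 0.0512) or without 11D IAA replicate 2 (-0.66, FDR 0.0820), it was -0.57 without 11D EtOH replicate 1, and its exons overlap those of Fam129c over 20.6% of their length.

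The non-oxidative arm rearranges sugars. Rpia, which turns ribulose phosphate into ribose phosphate (mm10, chromosome 6, 70765720 to 70792232, minus strand), had 10.9, 9.25 and 11.6 CPM in tagged IAA, against 3.23, 5.21, 4.95 and 4.52 in tagged EtOH and 2.99, 5.84 and 5.99 in untagged IAA. This is the lowest of the 45 genes per kilobase in tagged EtOH, with 32 to 177 counts per library in tagged IAA and 16 to 53 in tagged EtOH, and it rose by 1.25 ± 0.22 (FDR 0.000249) without overlap. Rpe, the epimerase that acts on the same substrate, had 71.2, 71.1 and 70.9 CPM in tagged IAA, against 104, 128, 98.3 and 109 in tagged EtOH and 158, 121 and 111 in untagged IAA (-0.62 ± 0.10, FDR 0.000112). These enzymes use the same substrate and moved in opposite directions. Tkt, transketolase, had 361, 355 and 324 CPM in tagged IAA, against 473, 518, 462 and 427 in tagged EtOH and 318, 402 and 446 in untagged IAA. It fell by 0.42 on the log2 scale (SE 0.08, FDR 0.000738), or by 0.12 with library totals, where it did not pass (FDR 0.208). Taldo1, transaldolase, stood at 135.3 to 142 CPM in tagged IAA and 136 to 162 in tagged EtOH (-0.09 ± 0.09, FDR 0.373, and 0.21 with library totals, FDR 0.0548).

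The pyruvate dehydrogenase complex changed little. Pdha1, its E1 alpha subunit, had a change of -0.27 ± 0.11 (FDR 0.0428) with 224 to 290 CPM in tagged IAA and 262 to 326 in tagged EtOH. That call was lost in 9 of 15 alternatives and the value was 0.02 with library totals. Pdhb (E1 beta) at -0.02 ± 0.08, Dlat (E2) at 0.17 ± 0.08 and Dld (E3, shared with 2-oxoglutarate dehydrogenase) at 0.06 ± 0.11 did not pass. With library totals Pdhb, Dlat and Dld were called higher, at 0.28, 0.46 and 0.35. Among the 50-base stretches of Pdhb 30.3% occur in other genes.

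The cycle opens with citrate synthase, Cs, at 421, 526 and 515 CPM in tagged IAA, against 451, 467, 409 and 449 in tagged EtOH (0.12 ± 0.10, FDR 0.315, and 0.41 with library totals, where it was called). The 3 subunit genes of the NAD-dependent isocitrate dehydrogenase fell together, Idh3a by 0.69, Idh3g by 0.70 and Idh3b by 0.37 on the log2 scale (SE 0.08, 0.10 and 0.08). Idh3a had 83.9, 87.0 and 85.6 CPM in tagged IAA, against 133, 133, 134 and 146 in tagged EtOH and 148, 132 and 139 in untagged IAA. Idh2, the mitochondrial NADP-dependent enzyme (mm10, chromosome 7, 80094846 to 80115392, minus strand), had 120, 122 and 113 CPM in tagged IAA, against 194, 196, 216 and 219 in tagged EtOH and 168, 200 and 199 in untagged IAA (-0.82 ± 0.09, FDR 3.18e-06). Idh1, its cytosolic counterpart, had 157, 167 and 174 CPM in tagged IAA, against 129, 169, 158 and 179 in tagged EtOH and 210, 171 and 177 in untagged IAA (0.04 ± 0.10, FDR 0.754, and 0.34 with library totals, where it was called). The share of Idh2 in this pair per kilobase was 40.8% to 45.1% in tagged IAA and 55.4% to 61.7% in tagged EtOH.

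In the 2-oxoglutarate dehydrogenase complex the subunits differed in sign. Ogdh (E1) had 148 to 165 CPM in tagged IAA and 220 to 260 in tagged EtOH, a change of -0.59 ± 0.09. Dlst (E2) had 163, 172 and 181 CPM in tagged IAA, against 134, 122, 118 and 131 in tagged EtOH and 132, 128 and 128 in untagged IAA. It rose by 0.44 ± 0.09 (FDR 0.000702), with the tagged IAA libraries above all others.

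Succinyl-CoA ligase joins the alpha subunit Suclg1 to a beta subunit that uses GTP (Suclg2) or ATP (Sucla2). Suclg2 (mm10, chromosome 6, 95473009 to 95718800, minus strand) had 5.99, 11.6 and 9.66 CPM in tagged IAA, against 12.7, 11.8, 28.1 and 27.9 in tagged EtOH and 23.3, 23.4 and 21.1 in untagged IAA. IAA was below EtOH in each line, where 10E and 11D start from different levels (-1.32 ± 0.17, FDR 2.20e-05). Suclg1 had 42.8, 51.7 and 49.0 CPM in tagged IAA, against 35.7, 37.2, 34.0 and 36.5 in tagged EtOH and 51.8, 50.2 and 45.9 in untagged IAA. It rose against EtOH (0.39 ± 0.11, FDR 0.00702) but lies in the range of the untagged libraries, and the call did not pass without 11D IAA replicate 1 (FDR 0.0548) or without the filter (FDR 0.0751). Sucla2 had 55.7, 51.7 and 52.9 CPM in tagged IAA, against 50.8, 70.0, 70.8 and 64.3 in tagged EtOH and 91.9, 73.1 and 78.9 in untagged IAA (-0.27 ± 0.12, FDR 0.0695, and 0.035 with library totals).

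Fumarase and malate dehydrogenase close the cycle. Fh1, fumarase, changed by -0.50 ± 0.10 with 41.3 to 48.6 CPM in tagged IAA and 56.6 to 73.4 in tagged EtOH. The malate dehydrogenases Mdh1 (cytosolic) and Mdh2 (mitochondrial) changed by -0.35 ± 0.09 and -0.22 ± 0.09. Mdh1 had 94.5, 103 and 102 CPM in tagged IAA, against 105, 132, 128 and 135.3 in tagged EtOH and 126, 120 and 140 in untagged IAA. Mdh2 had 216, 220 and 211 CPM in tagged IAA, against 277, 278, 245 and 222 in tagged EtOH and 213, 240 and 225 in untagged IAA. The call of Mdh2 (FDR 0.0435) was lost in 10 of 15 alternatives and its value was 0.08 with library totals, where Mdh1 (-0.06), Idh3b (-0.07) and Fh1 (-0.20) did not pass either.

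**Figure D4:**
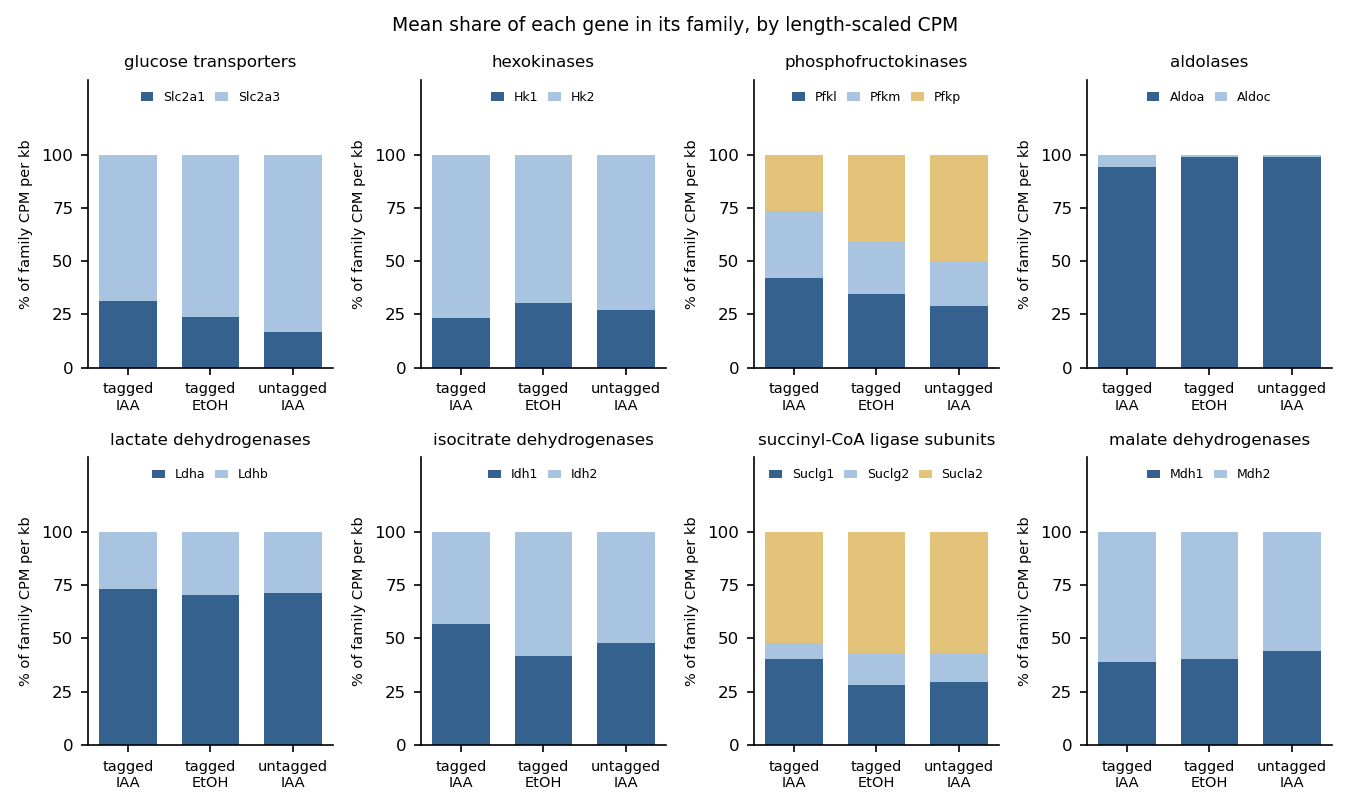
Mean share of each gene in the CPM per kilobase of its family (y axis, percent) in tagged IAA, tagged EtOH and untagged IAA libraries (x axis); the shares of a family add up to 100. Pfkp averages 26.3% of the phosphofructokinases in tagged IAA, against 40.9% in tagged EtOH and 50.01% in untagged IAA.

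Both tagged lines moved alike in sign for 43 of the 45 genes and for all 38 that were called. The calls came from a fit that pools both lines and so favours genes whose lines agree. The share of all genes with the same sign was not computed. For the genes of lowest FDR the effects were -1.59 in 11D and -1.47 in 10E for Pfkp, -1.25 and -1.24 for Hk1, and -1.37 and -1.63 for Pdk1. The exceptions were Cs (0.27 in 11D, -0.12 in 10E) and Taldo1 (0.00 in 11D, -0.23 in 10E). No gene of all 15722 passed the test of a difference between the lines' effects (0%; 773 had an unadjusted p under 0.05, and DESeq2 called 1 gene and none of the 45). Of the 45 genes 3 had an unadjusted p under 0.05, Ldhb (-0.59 ± 0.25, 11D minus 10E), G6pdx (0.49 ± 0.19) and Cs (0.39 ± 0.17), each with an FDR of 0.934. The effect in 10E rests on 1 IAA library, which is assumed to vary like the others.

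A comparison of the lines in EtOH was added after the values had been seen. In 11D EtOH, against 10E EtOH, Suclg2 (1.19) and Pfkfb3 (0.90) were higher, and Pfkl (-0.62), G6pdx (-0.62) and Pkm (-0.53) were lower, 2 and 3 of the 45 genes where 1.92% and 1.2% of all genes were called. All 5 calls were lost without 10E EtOH replicate 1, without 10E EtOH replicate 2 or without 11D EtOH replicate 2.

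Tagged IAA cells were also set against untagged cells, a comparison in which both groups received IAA. Of the 45 genes 26 were lower in tagged IAA and 6 higher, where 28.9% and 29% of 15522 genes were called (6178 higher and 2911 lower with library totals, in place of 4501 and 4491). The median of the 45 was -0.39, against 0.00 over all genes. For glycolytic genes it was -0.57 (14 of 20 lower, 2 higher), where it was -0.86 against EtOH. It was -0.04 for pentose phosphate genes and -0.40 for pyruvate dehydrogenase and TCA genes. Scaled by totals alone, 18 of the 45 were lower and 8 higher, with medians of -0.13 for the 45 genes and 0.27 for all genes. With 11D alone as the tagged line 25 of the 45 were lower and 7 higher, where 4296 and 4490 of all genes were. With 10E alone 21 were lower and 5 higher, where 3429 and 3387 of all genes were. This comparison shares its tagged IAA libraries with the one against EtOH. The changes were -1.56 ± 0.11 for Pfkp, -1.51 ± 0.17 for Suclg2, -1.18 ± 0.11 for Slc2a3 and -1.10 ± 0.10 for Hk1, and 1.72 ± 0.21 for Aldoc, 1.40 ± 0.19 for Pfkfb3 and 1.07 ± 0.27 for Rpia. Slc2a1, Gpi1, Pfkl and Pfkm, which fell against EtOH, stood at -0.05, -0.03, -0.13 and -0.05 here and did not pass, and with library totals at 0.22, 0.24, 0.13 and 0.21. Dld (-0.44 ± 0.15) and Sucla2 (-0.58 ± 0.14) were lower and Dlat (0.29 ± 0.09) higher than in untagged cells, none of which was called against EtOH. The call of Dlat did not pass in 5 of 13 alternatives, among them those without untagged replicate 2 (0.23) or 3 (0.28), and that of Dld in 4, among them library totals (-0.17) and those without untagged replicate 1 (-0.29) or 11D IAA replicate 1 (-0.40).

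Tagged EtOH cells differed from untagged IAA cells in fewer genes. Of the 45, 6 were higher and 1 lower, where 1.27% and 2.27% of all genes were called. The glycolytic genes had a median of 0.36, with 17 of 20 above 0, where 7710 of 15522 genes were. The median was 0.07 for pentose phosphate genes and -0.04 for pyruvate dehydrogenase and TCA genes. Higher were the glycolytic genes Pfkfb3 (0.88 ± 0.17), Slc2a1 (0.58 ± 0.13), Pfkl (0.48 ± 0.09), Pfkm (0.46 ± 0.11), Gpi1 (0.42 ± 0.10) and Tpi1 (0.41 ± 0.10), and lower was Suclg1 (-0.45 ± 0.10). In this comparison the tag, the line and the treatment cannot be told apart. Of these 45 genes, 3 were higher once 10E EtOH replicate 2 was left out, 3 once 11D EtOH replicate 1 was, 0 once untagged replicate 1 was and 1 once untagged replicate 2 was. Suclg1 lost its call without 10E EtOH replicate 1, 11D EtOH replicate 1, untagged replicate 1 or untagged replicate 2, and DESeq2 called 13 higher and 2 lower.

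**Figure D5:**
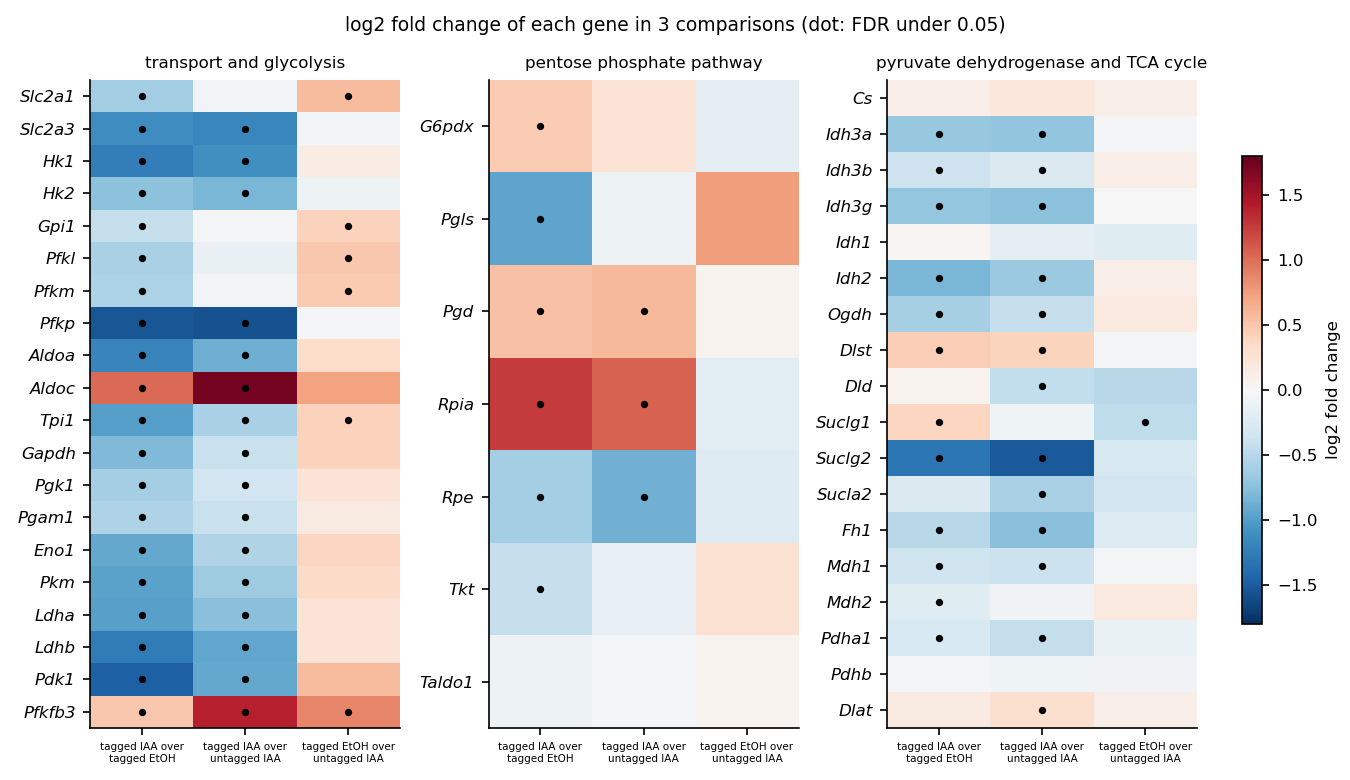
Log2 fold change (colour, blue lower and red higher) of each gene (rows) in 3 comparisons (columns), with a dot where the FDR was under 0.05. The groups are shared between columns; in the third column, tagged EtOH over untagged IAA, 6 glycolytic genes and Suclg1 carry a dot.

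Genes of the same pathways outside the 45 were counted from lists. Of 18 other glycolytic genes tested (26 listed), 5 rose and 5 fell against EtOH, with a median of 0.04; over all genes 30.2% rose and 29.3% fell, so these shares are near those of all genes. Muscle isoforms of the lower pathway rose, Pgam2 by 2.45 ± 0.31 and Eno3 by 2.06 ± 0.19, as did Pfkfb2 (1.53 ± 0.13), another maker of fructose 2,6-bisphosphate. Pgam2 rests on 19 to 91 counts per library in tagged IAA and 5 to 14 in tagged EtOH. Pfkfb1 (-1.48 ± 0.17), Tigar, a fructose bisphosphatase (-1.07 ± 0.09), and Gpd2, the mitochondrial glycerol phosphate dehydrogenase (-0.70 ± 0.08), fell.

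Of 9 other pentose phosphate genes (11 listed) 2 rose and 4 fell, where 30.2% and 29.3% of all genes did. The gluconeogenic enzyme Fbp1 stood at 27, 19 and 90 counts in tagged IAA libraries, against 3, 2, 1 and 2 in tagged EtOH libraries (4.5 ± 0.39), and Shpk, which phosphorylates sedoheptulose, rose by 1.10 ± 0.28. Pgm1, phosphoglucomutase (-1.54 ± 0.15), H6pd, the enzyme of the oxidative arm in the endoplasmic reticulum (-0.83 ± 0.16), and Prps2, which makes PRPP from ribose phosphate (-0.54 ± 0.17), fell.

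Of 27 other pyruvate and TCA genes (28 listed) 13 fell and 6 rose, where 29.3% and 30.2% of all genes did. Got1, the cytosolic aspartate aminotransferase (-1.64 ± 0.10), Pdk2, another pyruvate dehydrogenase kinase (-2.02 ± 0.25), and Pdp2, a phosphatase of that complex (-0.67 ± 0.10), fell. Pdpr, a regulator of the phosphatase (0.83 ± 0.10), and Mpc2 and Mpc1, the mitochondrial pyruvate carrier (0.90 ± 0.17 and 0.62 ± 0.15), rose.

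Of 23 tested genes known to regulate these pathways (24 listed) 12 fell and 4 rose, where 29.3% and 30.2% of all genes did. Lower were Esrrb (-1.91 ± 0.12) and Zfp42 (-1.60 ± 0.12), which are also stem cell markers of the list above, and Arnt (-0.92 ± 0.10), the partner of the hypoxia-inducible factors. Higher were Txnip (1.13 ± 0.13), which restrains glucose uptake, Mlxipl, the carbohydrate-response factor ChREBP (1.77 ± 0.22), and Vhl (0.75 ± 0.10), which targets hypoxia-inducible factors for degradation. Also on the list, Hif1a had 94.3 to 113 CPM in tagged IAA and 122 to 171 in tagged EtOH. Epas1 had 44.5 to 85.6 and 29.3 to 60.3 CPM, and Egln1 15.3 to 16.8 and 23.9 to 32.9. The activity of the hypoxia-inducible factors was not tested. Of 13 tested targets of these factors outside glycolysis (14 listed) 6 fell and 3 rose (median -0.0039), where 29.3% and 30.2% of all genes did. Vegfa (-0.94 ± 0.13), Mxi1 (-0.88 ± 0.13) and Bnip3 (-1.29 ± 0.21) fell, and Ddit4 (0.89 ± 0.14), Higd1a (1.14 ± 0.20) and Bhlhe40 (0.52 ± 0.17) rose.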

How the data were processed

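RNA was counted in 10 libraries: 3 tagged IAA, 4 tagged EtOH and 3 untagged IAA. The authors deposited whole-number read counts per gene symbol without normalization. Per the submitters' processing notes, STAR, deepTools and mm10 were used; no source used here gives the read counter, annotation, strand setting or versions, so genes with overlapping exons (16 of the 45) or near-copies are uncertain. Libraries were built with a directional kit, per the labels. The labels list 11 samples, and the codes 10E and 11D could not be matched with the clone numbers in them. The TIR1 columns were taken as untagged because no other code has an IAA replicate 3 and lacks EtOH.

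The deposited counts were tested with edgeR 4.0.16 in R 4.3.3 (TMM, filterByExpr by group, quasi-likelihood F test) and called at a Benjamini-Hochberg FDR under 0.05 over all genes tested. For IAA against EtOH the model held the 7 tagged libraries and an additive line term, and the lines' difference used 1 coefficient per line and treatment. Comparisons with untagged cells used all 10 libraries with the lines averaged. Fold changes are log2 with SE, taken as the absolute fold change over the root of F. CPM are counts scaled by library total and TMM factor, and CPM per kilobase divide by the merged exon length in GENCODE vM21. Scripts were tested on simulated data. Alternatives were DESeq2 1.42.0, other scaling, no filter, leaving out each library and a replicate block. For IAA against EtOH they also included no line term, all 10 libraries, and leaving out the 2 EtOH libraries richest in CT010467.1.

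Whether replicates were separate cultures is not stated in the labels, and p-values then reflect only library-to-library spread, possibly technical. No replicate pair looked like 1 library deposited again (chi-square over its degrees of freedom, 3.05 to 28.9). The 45 genes and all lists were chosen with earlier results of these data known. Values in each library are given for gene families, for the 3 called genes of lowest FDR in each pathway and for called genes against the direction of most of their pathway. From other lists, up to 3 called genes per direction of lowest FDR are named, and other values shown beside these were chosen after they had been seen.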

Additional observations from a re-analysis of the deposited data

Results flagged for a closer look

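In the 4 EtOH libraries 1 value stood apart for each of 3 genes, by the size of its gap to the nearest value relative to the range. Pdk1 was at 99.3 CPM in 10E EtOH replicate 2, where the next value was 83.7. Idh3a was at 145.9 CPM in 11D EtOH replicate 2, where the next value was 133.9. Dlat was at 87.9 CPM in 11D EtOH replicate 2, where the next value was 96.5. Across 48 such examinations chance flags about 1 in 20 if the 4 values come from 1 population. Here they come from 2 lines, so that rate may not hold. Against IAA, Pdk1 and Idh3a were called and Dlat was not, with each library left out in turn.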

How the results depend on the processing

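Over the 15 alternatives of IAA against EtOH, 5 to 12 of the 45 genes were higher and 23 to 32 lower. Library totals gave 12 higher, 7 higher and 5 lower among pyruvate dehydrogenase and TCA genes, and 2738 lower over all genes. There 5 of the 45 values changed sign, 2 of them called with TMM, Mdh2 (0.081) and Pdha1 (0.023); the others were Pdhb (0.28), Taldo1 (0.21) and Sucla2 (0.035). Against untagged cells 12 changed sign with totals, of which Idh3b (0.0062) had been called with TMM, and 2911 genes were lower over all. Higher glycolytic genes numbered 1 without the filter, 1 without the line term and 1 to 2 with libraries left out; higher TCA genes numbered 1 without the filter and 1 to 2 with libraries left out. The interaction had 1 call over all genes in DESeq2, 27 without the filter and 0 to 1 with libraries left out; it could not be fitted without 10E IAA replicate 1.

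Tagged EtOH against untagged IAA varied most. Of the 45, 13 were higher in DESeq2, 13 without the filter and 0 to 7 with libraries left out; 2 were lower with totals, 2 in DESeq2, 2 without the filter and 0 to 2 with libraries left out. Over all genes 356, 643 and 15 to 498 were higher (DESeq2, no filter, libraries left out) and 560, 723 and 54 to 506 lower, with 689 lower by totals. For 11D against 10E in EtOH, 4 of the 45 were higher without the filter and 0 to 3 with libraries left out; 5 were lower in DESeq2, 5 without the filter and 0 to 2 with libraries left out. Over all genes 522 were higher and 448 lower without the filter, and 47 to 414 and 12 to 464 with libraries left out.

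Libraries of the same replicate number in different groups had correlations of deviations of -0.24 to 0.31. The highest, 0.31, was between 11D EtOH and 11D IAA, the only groups of the same line that could be set side by side. With 2 replicates both numbers give the same value, so these correlations cannot decide whether a number marks a shared culture or day. With a replicate block 7 of the 45 were higher and 30 lower in IAA against EtOH, and 5 higher and 22 lower in tagged IAA against untagged IAA. For tagged EtOH against untagged IAA the block gave 2 higher and 0 lower, and 72 and 154 over all genes. The cause of these differences was not tested. Low counts limit Rpia, Suclg2 and Fbp1.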
